A study of Mus musculus with 6 samples.

Results

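The cytosolic ribosomal protein genes were followed across the epithelial cell classes of the mouse jejunum, from crypt to villus and across the depth at which cells were counted. Members were all genes listed for both jejunal regions whose symbol begins with Rpl or Rps and a digit, or with Rplp0, Rplp1 or Rplp2, or is Rpsa, without the Rps6k kinases and without loci whose symbol carries the pseudogene mark ps. This gave 88 genes of the 5674 shared by both regions, or 1.55%. Of these, 76 encode core subunits of the cytosolic ribosome, 45 in the large and 31 in the small subunit. A further 5 are paralogues of a subunit gene (Rpl22l1, Rps27l, Rpl7l1, Rpl36al and Rps4l) and 6 are retrocopies, which are copies of a spliced message set back into the genome (Rpl32l, Rps12l1, Rps3a2, Rps3a3, Rpl37rt and Rps27rt). The remaining gene, Rps19bp1, encodes a nucleolar binding partner of a ribosomal protein and not a subunit. In the GENCODE vM21 annotation 82 members are protein coding, and 6, namely Rps4l and all retrocopies but Rps27rt, are annotated as pseudogenes. Rps4l is annotated as a transcribed processed pseudogene, as is Rpl37rt. By the definition above Rps4l is thus also a retrocopy, and it is counted among the paralogues only by its symbol.

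The tissue came from 120-day-old mice of a mixed CD-1 and C57BL/6 background. From each of 3 mice, an anterior piece of jejunum (piece 3 of 12) and a posterior piece (piece 7 of 12) were taken, which gives 6 samples, and the labels name no genotype, treatment or sex. EpCAM-positive cells that excluded the dye DAPI were sorted as single cells into wells after villus and crypt cells had been mixed in equal parts, and were sequenced by MARS-seq, a plate method that counts tagged 3′ ends of messages as unique molecular identifiers (UMIs). Of 3348 single-cell wells on 9 plates, 2043 cells were in the deposited tables, and no cell name occurred in more than one sample.

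A ribosome is built from ribosomal RNAs and a like number of copies of most ribosomal proteins, and the messages of these genes are usually present in balanced amounts. Many of these messages begin with a run of pyrimidines, which lets growth signals set how strongly they are translated. In the intestine, stem and transit-amplifying cells divide in the crypt, and their progeny move up the villus as enterocytes or mature into the secretory goblet, Paneth and enteroendocrine cells and the chemosensory tuft cells.

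The promoters of the members are shown first. Genes of this family are scattered over the genome and, as given below, vary together. A link between promoter letters and this joint variation was not tested. The members lie on 19 chromosomes, with at most 15 on one, and RefSeq promoter windows of the GRCm38.p6 build (250 bases before to 50 bases after the start) were found for 64 of the 88. The 6 letters CGGAAG or their reverse complement CTTCCG, the core letters recognised by ETS factors, were in the window of 42 of these 64 members (65.6%), against 18.8% of all 27025 genes in the table. The 6 letters CTTTCC, which fall within a pyrimidine run, were found on the sense strand within 20 bases on either side of the start in 11 of 64 members (17.2%) and in 2.30% of all genes. On either strand of the whole window, CTTTCC or GGAAAG was in 51.6% of members and 29.3% of all genes. The 27025 genes were not limited to the 5674 measured in both regions. The shares therefore do not compare members with other expressed genes. A match describes the letters and was not tested as a binding site.

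The first 5 sequences are the members of largest progenitor-to-enterocyte difference whose window holds CTTCCG, which is in capitals, each 80 bases long and on the sense strand.
Rpl12, chr2:32961502-32961581, plus strand: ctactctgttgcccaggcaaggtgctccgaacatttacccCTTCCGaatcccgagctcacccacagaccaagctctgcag
Rpl27a, chr7:109518986-109519065, plus strand: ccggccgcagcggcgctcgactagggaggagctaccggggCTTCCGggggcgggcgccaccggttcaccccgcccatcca
Rpsa, chr9:120127538-120127617, plus strand: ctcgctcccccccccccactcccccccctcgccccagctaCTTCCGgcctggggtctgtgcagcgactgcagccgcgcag
Rps2, chr17:24719896-24719975, plus strand: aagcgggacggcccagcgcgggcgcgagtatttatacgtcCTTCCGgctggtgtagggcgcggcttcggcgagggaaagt
Rps15a, chr7:118116161-118116240, minus strand: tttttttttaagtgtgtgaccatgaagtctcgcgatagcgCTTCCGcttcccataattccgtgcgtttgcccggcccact

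The next 4 are the members of largest difference with CTTTCC near the start, which is in capitals. Each run of 40 bases holds 20 bases before the annotated start and 20 from it.
Rpl35, chr2:39005112-39005151, minus strand: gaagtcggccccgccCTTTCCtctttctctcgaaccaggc
Rpl13a, chr7:45128726-45128765, minus strand: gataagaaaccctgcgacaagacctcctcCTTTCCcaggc
Rpl15, chr14:18270967-18271006, minus strand: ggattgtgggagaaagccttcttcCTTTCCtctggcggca
Rps10, chr17:27635225-27635264, minus strand: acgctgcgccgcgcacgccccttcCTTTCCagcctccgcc

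The last pair belongs to paralogues whose difference between progenitors and enterocytes was small. Unlike the sequences above, they were not chosen by a motif, so the pair is no contrast of motif with difference. Each sequence holds 60 bases before the start and 20 from it, and the CGGAAG of Rps27l is in capitals. The rest of their windows is not printed.
Rps27l, chr9:66946026-66946105, plus strand: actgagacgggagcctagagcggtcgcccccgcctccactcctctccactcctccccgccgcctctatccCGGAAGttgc
Rpl7l1, chr17:46782637-46782716, minus strand: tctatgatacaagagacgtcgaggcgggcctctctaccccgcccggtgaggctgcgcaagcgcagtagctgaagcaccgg

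The members together made up 7.54% of all UMIs, averaged over the 6 samples, and their levels spanned a wide range. Levels are given as UMIs per 10000 UMIs of a cell over the shared genes (CP10K), averaged over cells, and since 1 tag is counted per message they need no correction for gene length. The median member stood at 6.94 CP10K, against 0.617 CP10K for the median of all genes. Of the 88 members, 77 reached 1 CP10K and 28 reached 10 CP10K, and the 5 highest held 19.4% of the family's UMIs. The 10 highest held 30.8%.

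Rpl41 (ENSMUSG00000093674), a very short basic protein of the large subunit, had the highest mean level, 39.8 ± 5.64 CP10K (SD, n = 6 samples). Rplp1 (ENSMUSG00000007892), an acidic protein of the stalk that recruits elongation factors, followed at 39.2 ± 10.6 CP10K. Rps14 had 26.0 ± 6.59, Rps12 21.9 ± 10.9 and Rps3 19.7 ± 4.92 CP10K, all from the small subunit. With SDs of this size, neighbours in this order did not differ beyond their spread. At the low end stood the retrocopies Rps12l1 (0.123 CP10K), Rps3a2 (0.150), Rps3a3 (0.221) and Rpl32l (0.246), with the paralogue Rpl7l1 (0.248). Reads of a retrocopy and its parent can be near-identical at the 3′ end, so how the counting divided them is uncertain.

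Cells were grouped by clustering on genes other than the members, and clusters were named from lists of marker genes, which gave 208 crypt progenitor-like, 469 enterocyte-like, 617 goblet-like, 111 enteroendocrine-like, 107 Paneth-like and 39 tuft-like cells. Ribosomal protein loci with the ps mark were not left out, so the classes may carry some of the family's signal. The summed level of 10 measured transit-amplifying genes was 32.1 CP10K in progenitor-like and 2.24 CP10K in enterocyte-like cells, and that of 14 enterocyte genes was 88.9 and 1065 CP10K. The enterocyte-like clusters were uneven: of these 14 genes, 13 were raised in cluster 4, 14 in cluster 9, 10 in cluster 10 and 5 in cluster 11. Their family shares were 3.04%, 3.59%, 14.4% and 14.1%. Goblet markers summed to 3867 CP10K in goblet-like and 65.1 CP10K in enterocyte-like cells. Paneth-like cells were mixed: they held the highest sum of Paneth markers of any class (582 CP10K, against 102 in goblet-like cells) but more goblet markers (1253 CP10K) and 456 CP10K of enterocyte markers, at a median depth of 923 UMIs. Of the anterior progenitor-like cells, 1 of 124 had a sum of the plasma cell genes Jchain, Igha and Igkc over 100 CP10K, and the mean sum was 511 CP10K with it and 2.92 CP10K without it. The other 492 cells, in clusters 2 and 6, resembled more than one list and stayed unnamed. A class entered a comparison in a sample with at least 5 cells of it. Mouse 1 stood apart: 95 of the 96 cells of enterocyte-like cluster 10 and 105 of the 116 cells of unnamed cluster 6 came from its samples, so results that rest on it are given with and without it. Median depth ran from 2741 to 8426 UMIs per cell over the samples, and sample totals ran from 1624320 to 3141654 UMIs.

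Crypt progenitor-like cells devoted the largest share of their UMIs to ribosomal protein messages in every sample. The share was 29.1%, 26.4% and 25.5% in the anterior samples of mice 1, 2 and 3, and 28.8%, 24.8% and 26.9% in the posterior ones, a mean of 26.9 ± 1.74% (SD, n = 6). Enterocyte-like cells of the same anterior samples had 14.7%, 5.21% and 7.64%, and those of the posterior ones 11.8%, 4.66% and 5.56%, a mean of 8.25 ± 4.08%. In goblet-like cells it was 4.67%, 2.87% and 2.89%, then 4.23%, 3.75% and 3.23%, a mean of 3.60 ± 0.741%. The lowest progenitor value lay above the highest value of any other class, whereas enterocyte-like and goblet-like values overlapped between different samples. Within every sample the goblet share was the lower of these, at 0.498 ± 0.184 times the enterocyte share (SD, n = 6, range 0.318 to 0.804).

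Enteroendocrine-like cells had 7.13 ± 1.08% (n = 5 samples) and Paneth-like cells 5.52 ± 0.726% (n = 5). Tuft-like cells had 8.99%, 4.41% and 2.99% in the 3 samples with enough cells. In the order of mean shares, enterocyte-like, enteroendocrine-like, Paneth-like, tuft-like and goblet-like, the ranges of neighbours overlapped. Among the unnamed cells, cluster 6 had 20.0% and cluster 2 had 3.20% of UMIs from members.

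**Figure D1:**
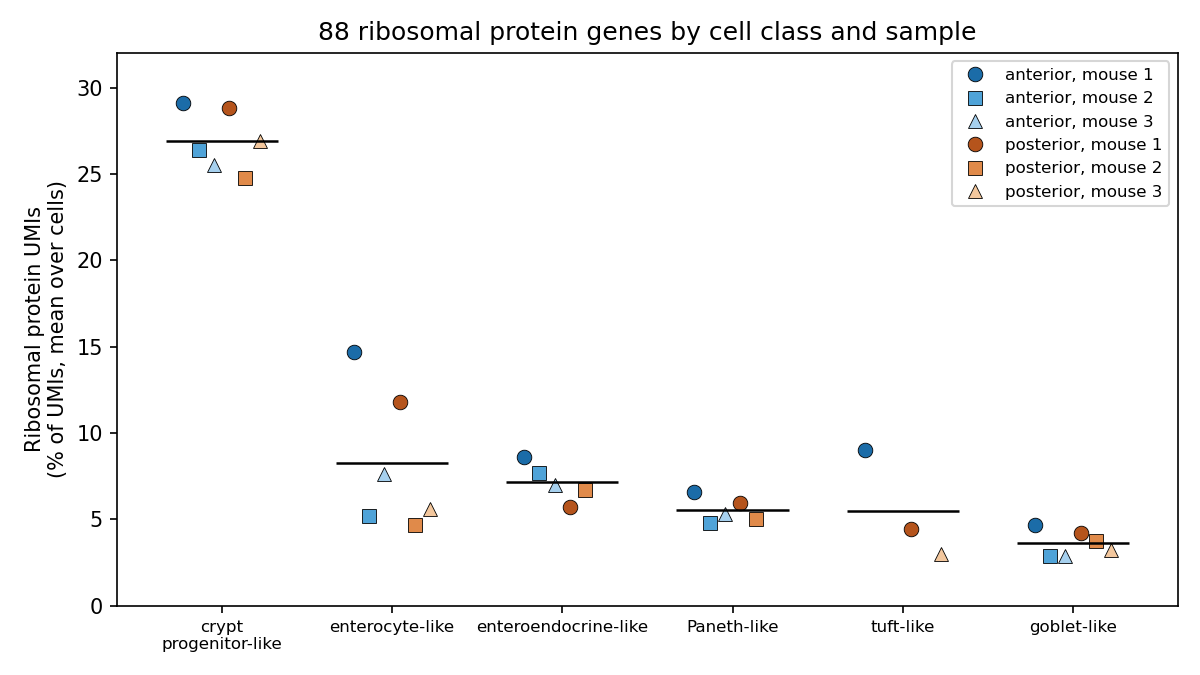
Percent of a cell's UMIs from the 88 ribosomal protein genes (y axis, mean over the cells of a class) in each class and sample; points are samples with at least 5 cells, colours give the region, shapes the mouse, and bars are means over samples. Progenitor-like samples lie between 24.8% and 29.1%, above all others, and both mouse 1 samples are the highest among enterocyte-like cells at 14.7% and 11.8%.

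Single cells of a class varied more within enterocyte-like than within progenitor-like cells. Over all 208 progenitor-like cells the share had a median of 27.6%, with 21.7% at the 10th and 35.3% at the 90th percentile. Over the 469 enterocyte-like cells the median was 4.08%, with 1.54% and 17.3% at the same points. Goblet-like cells had a median of 3.38%, with 1.62% and 7.18%.

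The balance between subunits changed less than the total. Large-subunit UMIs exceeded small-subunit UMIs by a ratio of 1.22 ± 0.067 in progenitor-like cells, 1.22 ± 0.081 in enterocyte-like cells and 1.36 ± 0.118 in goblet-like cells (SD, n = 6 each). The goblet ratios ran from 1.19 to 1.47, overlapping the 1.16 to 1.34 of progenitor-like cells across samples. Within every sample, however, the goblet ratio was above both others. In anterior mouse 2, for example, it was 1.44, against 1.25 in progenitor-like and 1.21 in enterocyte-like cells. This shift was not tested. The single large-subunit gene Rpl41 averaged 25.8 (anterior) and 33.1 CP10K (posterior) in goblet-like cells, against 46.4 and 36.35 CP10K in enterocyte-like cells. The large-subunit share as a whole averaged 2.03% in goblet-like and 4.43% in enterocyte-like cells. Ratios without Rpl41 are not given, so the shift need not hold for the rest of the large subunit.

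Within samples, the family share of progenitor-like cells was 3.83 ± 1.44 times that of enterocyte-like cells (SD, n = 6, range 1.98 to 5.31), with the lowest ratios, 1.98 and 2.45, in the anterior and posterior samples of mouse 1. Of the 86 members above the low-level filter, 77 rose in progenitor-like relative to enterocyte-like cells at an adjusted p under 0.05 and none fell, with limma and Benjamini-Hochberg adjustment over all genes; over all 5256 genes tested 9.02% rose and 6.81% fell. The median member difference was 1.81 on the log2(CP10K + 0.2) scale, on which all differences below are given, against 0.04 for all genes. Leaving members out of the total raised the all-gene median to 0.27 and the members' to 2.08. Of the 86, 85 were higher in progenitor-like cells in all 6 samples, and the share of all genes for this count is not given. The 6 samples came from 3 mice, so the fits count both pieces of a mouse as separate blocks. Without mouse 1, 62 members rose, and without the cell high in plasma cell genes 77 did. For these fits the share of all genes is not given.

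Among large-subunit genes, 45 of 45 rose, by 1.43 to 2.40. Rpl12 (ENSMUSG00000038900), which sits at the base of the stalk, had the largest difference of all members. Its level in progenitor-like cells was 46.7, 51.8 and 51.2 CP10K (anterior mice 1 to 3) and 51.3, 47.8 and 59.5 CP10K (posterior mice 1 to 3), against 20.9, 5.43 and 10.2, then 18.0, 4.81 and 7.37 CP10K in enterocyte-like cells. The classes did not overlap, and the difference was 2.40 ± 0.36 (SE, limma adjusted p = 5.005e-06). Rpl3, a core protein near the peptidyl transferase centre, followed at 2.30, then Rpl14 and Rpl27a at 2.25 each and Rpl32 at 2.13.

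All 3 stalk genes rose. Rplp0 (the stalk base) was higher by 1.94 ± 0.38 and its partners Rplp1 and Rplp2 by 1.81 ± 0.27 and 1.80 ± 0.35 (SE), with limma adjusted p of 0.000233, 5.192e-06 and 0.000233. Rplp1 had 133 to 153 CP10K in progenitor-like and 25.5 to 69.8 CP10K in enterocyte-like samples, without overlap. Rpl41 had 111 to 148 CP10K against 31.7 to 55.4 CP10K, a difference of 1.73 ± 0.23. Rpl39, a small protein that lines the exit tunnel, was the large-subunit gene with the widest spread, 0.585 to 6.71 CP10K in progenitor-like samples, and rose by 1.5 ± 0.51 (adjusted p = 0.0365).

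Among small-subunit genes, 30 of 31 rose. Rpsa, known also as a laminin receptor, had 55.3, 55.4 and 55.5 CP10K in progenitor-like cells of the anterior pieces, and 64.7, 45.5 and 60.9 CP10K in those of the posterior pieces. In enterocyte-like cells it had 25.7, 8.19 and 14.7, then 21.2, 6.18 and 9.55 CP10K, and the difference was 2.14 ± 0.30 (adjusted p = 2.295e-06). Rps2 and Rps15a rose by 2.08 each and Rps4x and Rps6 by 2.07 each. Rps6 is the subunit phosphorylated by the S6 kinases. The exception was Rps29, with 46.6, 23.6 and 25.1, then 33.7, 20.2 and 9.84 CP10K in progenitor-like cells and 27.1, 5.96 and 9.26, then 17.8, 5.31 and 4.37 CP10K in enterocyte-like cells. Its difference of 1.35 ± 0.49 missed the threshold (adjusted p = 0.0537), although it was higher in 6 of 6 samples.

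Of the other 10 members tested, 2 rose, Rpl22l1 by 1.81 (adjusted p = 0.0223) and the retrocopy Rpl37rt by 1.49 (adjusted p = 0.0237). Rps12l1 and Rps3a2 were below the filter. Rps27l, a p53-responsive paralogue, had 8.19, 10.1 and 11.1, then 7.58, 11.6 and 8.52 CP10K in progenitor-like cells and 6.12, 6.27 and 6.79, then 5.33, 5.40 and 5.54 in enterocyte-like cells. All 6 samples were higher in progenitor-like cells, but the difference of 0.66 ± 0.50 did not pass (adjusted p = 0.475), whereas its parent Rps27 rose by 1.58 ± 0.39 (adjusted p = 0.00376). The difference between parent and copy was not tested.

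Rpl7l1 differed by 0.79 (adjusted p = 0.253) beside a rise of 1.65 in Rpl7, and Rpl36al by 1.24 (adjusted p = 0.131) beside 1.81 in Rpl36a. Rpl22, the parent of Rpl22l1, rose by 1.92. Rps4l differed by -0.04 (adjusted p = 0.982), with 3 of 6 samples higher, beside 2.07 in Rps4x. Rps19bp1 differed by 1.2 (adjusted p = 0.287). Rps4l, Rpl7l1 and Rps19bp1 had mean levels of 0.563, 0.672 and 1.09 CP10K in progenitor-like cells, near the pseudocount of 0.2, where a fold change is understated.

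**Figure D2:**
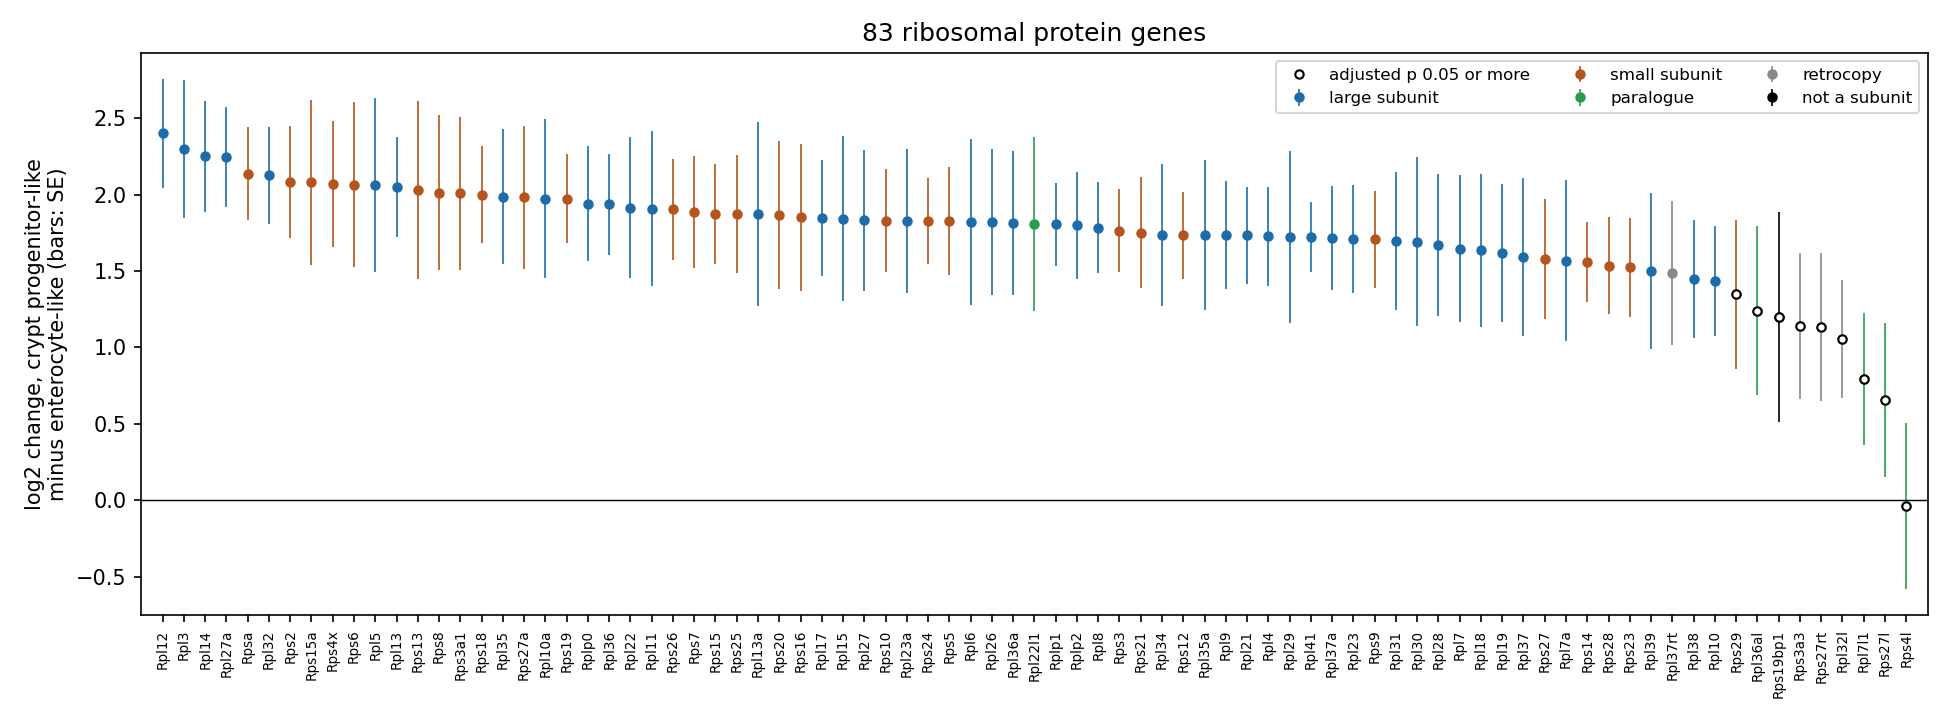
Log2 difference, crypt progenitor-like minus enterocyte-like, for 83 of the 86 members tested (x axis, ordered by size; y axis log2(CP10K + 0.2); bars are SE of the limma fit over 6 samples). Core subunits run from 2.40 (Rpl12) to 1.35 (Rps29, open point), and paralogues and retrocopies crowd the right end down to Rps4l at -0.04.

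Ribosomal proteins outside the naming rule did not all follow. Rack1, a scaffold on the small subunit, rose by 2.00 ± 0.47 (adjusted p = 0.00205). Fau, whose product yields the small-subunit protein eS30, had 24.9 to 29.3 CP10K in progenitor-like and 17.8 to 26.5 CP10K in enterocyte-like samples, a difference of 0.37 ± 0.33 that did not pass (adjusted p = 0.559). Of 20 ribosome biogenesis genes, 12 rose and none fell, with a median of 1.47, led by nucleolin (Ncl, 3.02), nucleophosmin (Npm1, 2.63) and Nhp2 (2.39). The rRNA methyltransferase fibrillarin (Fbl) rose by 2.04.

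Of 6 host genes of small nucleolar RNAs, which also carry pyrimidine starts, 5 rose, with Gas5 at 2.37. Of 47 translation factors, 6 rose and none fell, with a median of 1.00. These were Eef1g (2.15), Pabpc4 (1.85), Eef1b2 (1.83), Eif3i (1.64), Eef1d (1.61) and Naca (1.60). Eef1a1 (1.43, adjusted p = 0.0635), Pabpc1 (1.65, adjusted p = 0.0684), Tpt1 (0.72, adjusted p = 0.124) and Eef2 (0.55, adjusted p = 0.248) did not pass. Of 67 genes for mitochondrial ribosomal proteins, 3 rose (Mrpl52, Mrps6 and Mrps22) with a list median of 0.82, so their share of 4.48% was below that of all genes.

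Against goblet-like cells the progenitor difference was larger. The family share was 7.67 ± 1.27 times as high (SD, n = 6, range 6.23 to 9.19), and 84 of 86 members rose and none fell, where 24.4% of all genes rose and 8.28% fell. The median member difference was 2.93, with 0.37 for all genes, a shift that became 0.67 when members were left out of the total. Among the members with large differences were the small-subunit genes Rps6 at 3.37 and Rps16 at 3.36, and the large-subunit gene Rpl14 at 3.36. Rps19bp1 (1.06, adjusted p = 0.249) and Rps4l (0.88, adjusted p = 0.227) did not pass. Here Rps27l rose too, by 2.49 ± 0.50 (adjusted p = 0.000159). The long nuclear transcripts Malat1 and Neat1, often high in damaged cells, stood at 7.84 ± 4.98 and 0.780 ± 0.940 CP10K in progenitor-like cells and at 113 ± 39.5 and 15.9 ± 4.09 CP10K in goblet-like cells. Median depth was 11878.5 UMIs in progenitor-like and 2166 UMIs in goblet-like cells, and the part of these in the difference was not tested.

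Goblet-like cells lay below enterocyte-like cells. Of 86 members, 38 fell and none rose, where 15.0% of all genes fell and 5.73% rose, and the member median was -1.10 with -0.42 for all genes. Rps23 had 5.16, 4.31 and 1.99 CP10K in anterior goblet-like samples, and 3.41, 2.095 and 1.465 CP10K in posterior ones. In enterocyte-like samples it had 18.95, 7.945 and 7.943, then 14.02, 6.27 and 5.125 CP10K. It was lower in goblet-like cells within every sample, while the highest goblet-like value lay just above the lowest enterocyte-like one, and the difference was -1.62. Rps27l fell by 1.83 (adjusted p = 0.00762) and Rps14 by 1.58. Rpl41 did not pass (-0.51, adjusted p = 0.106).

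This comparison rested in part on mouse 1 and on the fit. Without mouse 1, 11 members fell. Without its anterior sample 18 fell, without its posterior sample 21 and without the anterior sample of mouse 3, 24, and with no sample block 22 fell. The share of all genes that fell in these fits is not given. The counts therefore do not show whether members still stood out from all genes. Malat1 was at 10.2 ± 6.65 CP10K in enterocyte-like cells, below its goblet-like level given above, and their median depth was 10517 UMIs. The part of either in the difference was not tested.

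Between enteroendocrine-like and enterocyte-like cells no difference was detected in this family. No member passed in limma at an adjusted p under 0.05, where 3.61% of all genes rose and 10.6% fell, and 2 (2.33%) had an unadjusted p under 0.05, against 26.5% of all genes. The member median was -0.20, beside -0.22 for all genes. Among the members with small p were Rps19 (-0.67, adjusted p = 0.149) and Rpl7 (-0.93, adjusted p = 0.25). The ratio of family shares was 0.978 ± 0.463 (n = 5 samples), and it ran from 0.486 to 1.48, on both sides of 1. The member median was 0.22 without mouse 1.

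**Figure D3:**
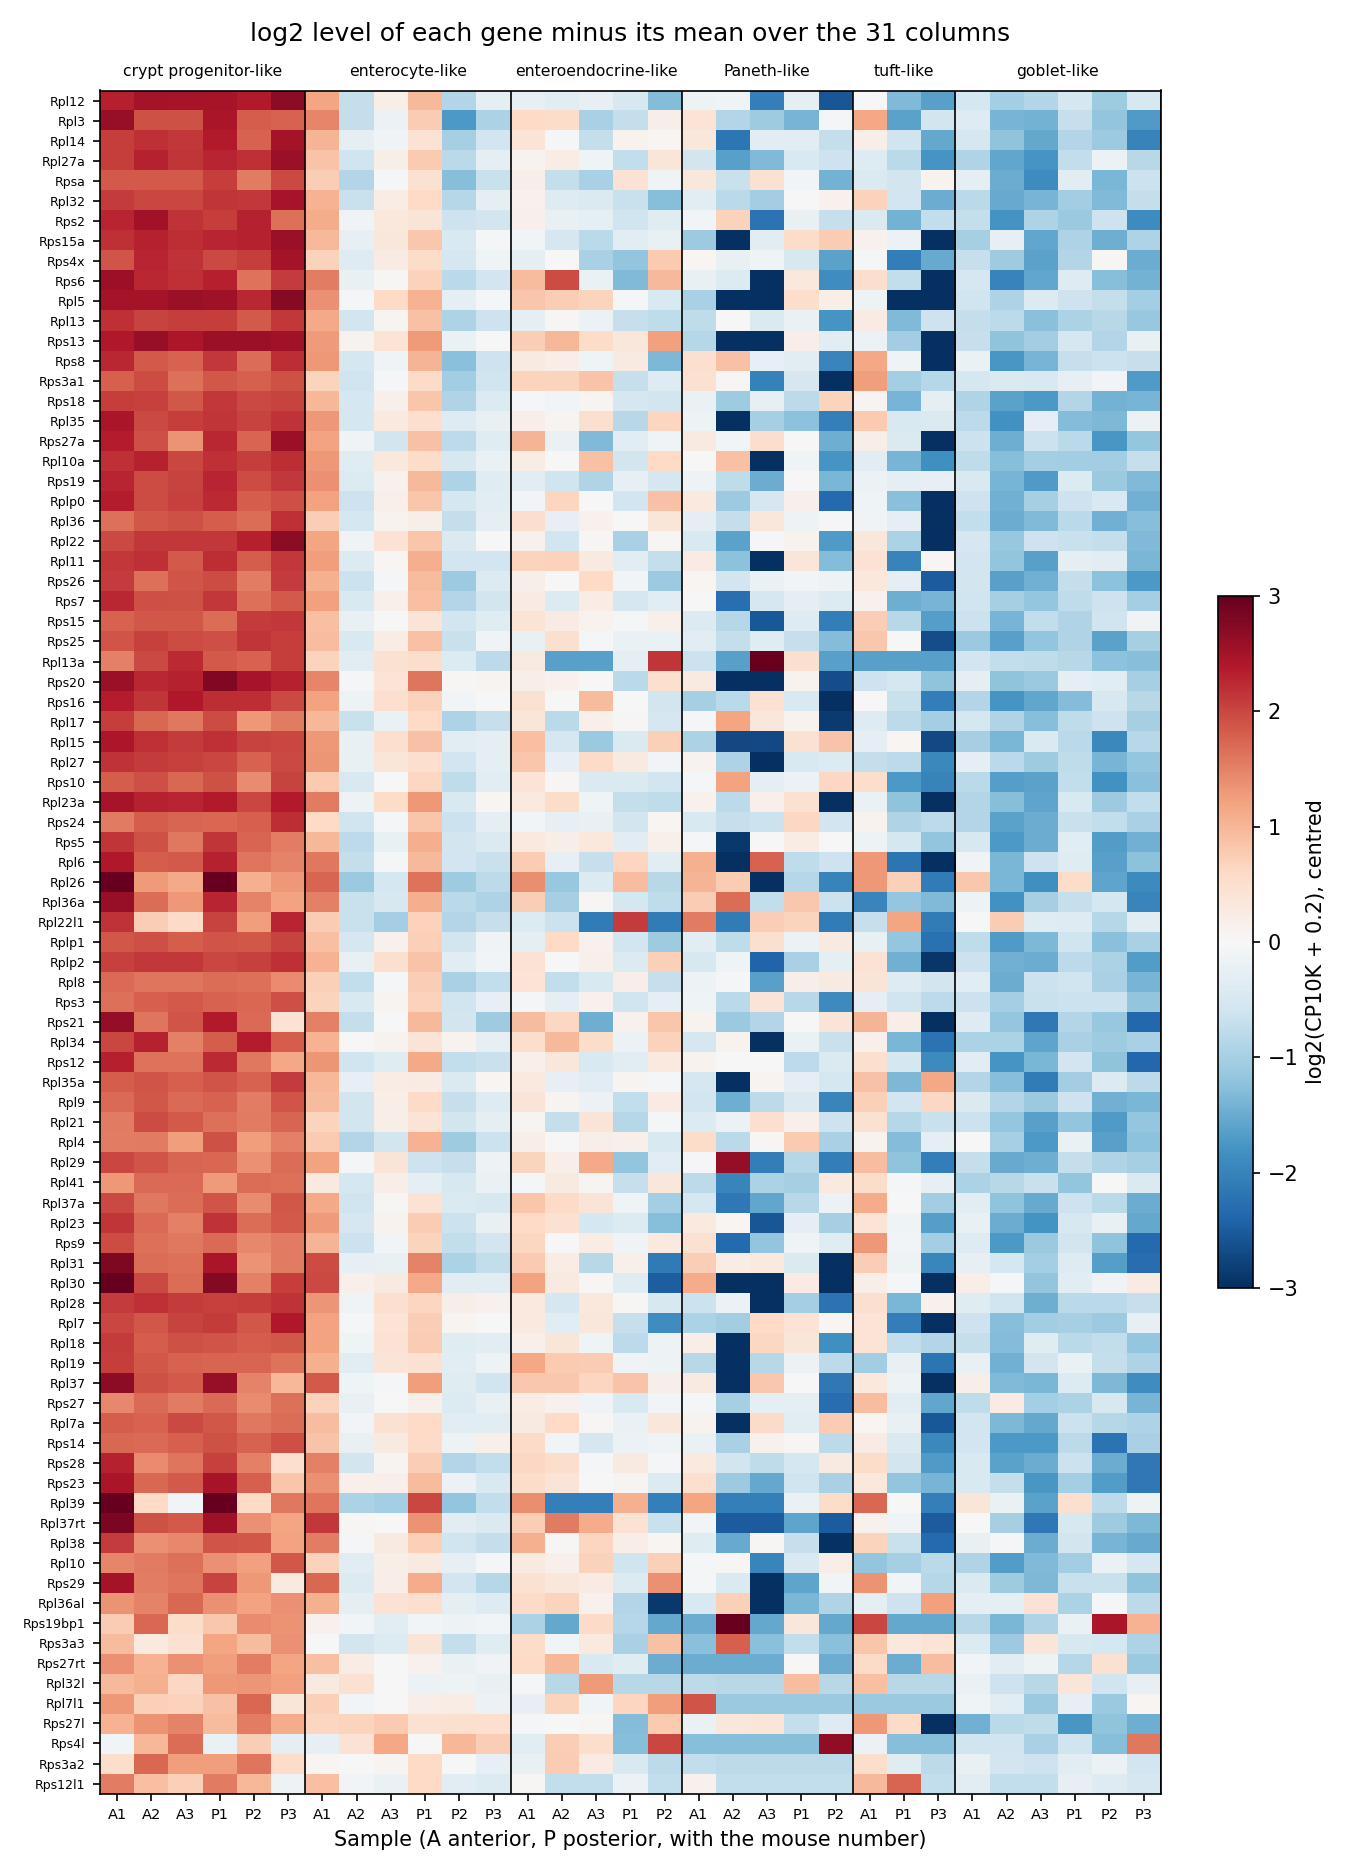
Level of each of 85 of the 88 members (rows, in the order of the progenitor minus enterocyte difference, with the 2 untested members last) in each class and sample (31 columns, A anterior and P posterior with the mouse number), as log2(CP10K + 0.2) minus the mean of the row; red is higher and blue lower. Progenitor-like columns are red in nearly all rows, goblet-like columns mostly blue, and the rows at the foot, such as Rps4l, Rps27l and Rps19bp1, show another pattern.

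Along the villus, the family fell from the lower to the upper part. Enterocyte-like cells of each sample were ordered by a score of 12 lower-villus and 11 upper-villus landmark genes outside the family, such as Reg3b at the base and Apoa4 and Ada at the tip, and divided at the median. The family share in the lower part was 18.2%, 7.61% and 12.1% for anterior mice 1 to 3, then 14.3%, 6.92% and 9.42% for the posterior pieces. In the upper part it was 11.2%, 2.90% and 3.06%, then 9.37%, 2.40% and 1.71%. Every sample was higher in its lower part, by 3.02 ± 1.52 times (SD, n = 6, range 1.52 to 5.52). Across mice the parts overlapped, since the upper parts of mouse 1 (11.2% and 9.37%) were above the lower parts of mouse 2.

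Of the 85 members tested, 80 fell in the upper part and none rose, where 7.95% of all 4752 genes fell and 4.61% rose (limma with sample as a block). The member median was -1.40 and that of all genes -0.05. With no sample block no member passed. Without mouse 1, 79 fell and the member median was -1.77. How many of all genes fell in that fit is not given. Large-subunit genes fell in 44 of 45 cases and small-subunit genes in 31 of 31.

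Rpl12 led again. In the lower part it had 27.6, 8.90 and 17.7 CP10K for anterior mice 1 to 3, then 23.5, 8.34 and 13.6 CP10K for posterior ones. In the upper part it had 14.3, 2.09 and 2.52, then 12.96, 1.28 and 1.15 CP10K. Each sample was lower in its upper part, and the difference was -2.06 ± 0.27 (SE, limma adjusted p = 8.708e-05). Rpl23a, which lies at the mouth of the exit tunnel, differed by -2.01, Rpl13 by -1.93, Rps18 by -1.86 and Rpl14 by -1.82. The stalk genes Rplp0, Rplp1 and Rplp2 fell by 1.51, 1.40 and 1.51 on the log2 scale.

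The members that did not pass were Rpl7l1 (-0.04), Rps4l (-0.25), Rps27l (-0.45, adjusted p = 0.0889), Rps3a3 (-0.75, adjusted p = 0.0556) and Rpl39 (-0.77, adjusted p = 0.0506). Rps27l stayed between 6.12 and 8.29 CP10K in the lower and 4.48 and 6.13 CP10K in the upper parts. Of the paralogues, Rpl22l1 (-0.84) and Rpl36al (-0.92) fell. Rack1 fell by 1.60 and Fau by 0.54 (adjusted p = 0.045).

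Of the pathway lists, 9 of 44 translation factors fell, among them Eef1b2 (-1.27) and Eef1g (-1.25), with 2 of 11 biogenesis genes (Ncl, -1.06, and Nop10, -0.96). Mitochondrial ribosomal protein genes fell in 16 of 66 cases, and none of any list rose. Their list median was -0.49.

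When each sample was divided into 5 bins of equal size by the score, the mean share over samples was 13.2 ± 3.12%, 11.1 ± 5.08%, 7.98 ± 6.19%, 5.59 ± 4.89% and 3.07 ± 2.06% from the lowest to the highest (SD, n = 6). Mouse 1 stayed high into bin 4, at 13.4% in its anterior and 10% in its posterior sample, where the other 4 samples had 1.64% to 2.91%. As a description over cells of 1 sample, Spearman's rho between score and share ran from -0.518 (37 cells) to -0.872 (69 cells). Score and share come from the same cells and the same UMI totals. Inside clusters 4, 9, 10 and 11 rho was -0.687, -0.648, -0.509 and -0.214. In each sample 4 to 17 cells lay within 0.1 score units of the division.

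**Figure D4:**
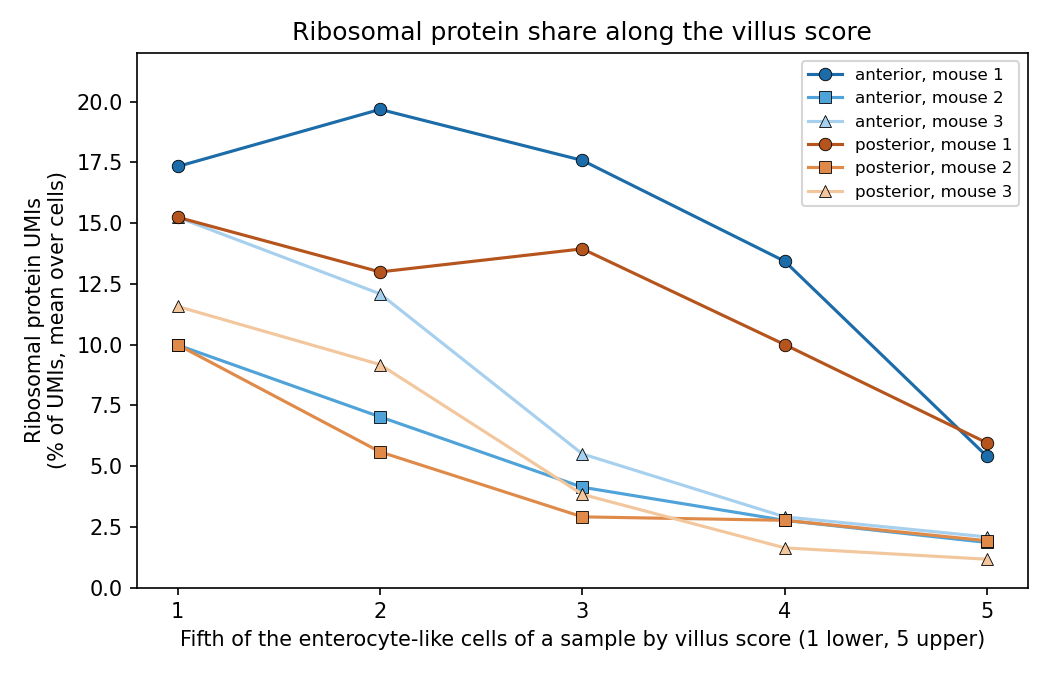
Percent of UMIs from members (y axis, mean over cells) in 5 equal bins of the enterocyte-like cells of each sample by villus score (x axis, 1 lowest, 5 highest); each line is a sample. Bin 1 lies between 9.98% and 17.3% and bin 5 between 1.17% and 5.95%, with both mouse 1 lines above the others from bin 2 on.

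Other measures moved with the score. Median depth was higher in the lower part in 5 of 6 samples, for example 19192 against 12239 UMIs in posterior mouse 1, and 12089.5 against 12291 in anterior mouse 3. The sum of Apoa1, Apoa4 and Fabp1, which are abundant enterocyte messages, was 356 ± 112 CP10K in the lower and 858 ± 270 CP10K in the upper parts. Malat1 was 8.04 ± 6.31 CP10K in the lower and 12.3 ± 7.46 CP10K in the upper parts, higher in the upper part in all samples but posterior mouse 1. The part of these in the result was not tested. Transit-amplifying genes had 2.26 and 2.21 CP10K. With cells thinned to 2000 UMIs, 76 members fell, and the all-gene share of that fit is not given. Thinning drops cells below that depth but leaves the expected share of a gene in a cell unchanged. It therefore cannot remove a link between depth and share.

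Cells counted to different depths were compared within a class by dividing each sample at its own median of UMIs per cell. In enterocyte-like cells the family share (anterior mice 1 to 3, then posterior) was 12.6%, 4.34% and 7.68%, then 9.75%, 2.92% and 4.10% in the shallow cells. In the deep cells it was 16.8%, 6.14% and 7.77%, then 13.5%, 6.40% and 7.02%. All 6 samples were higher in the deep cells, by 1.51 ± 0.401 times, though anterior mouse 3 by only 1.01 times. Of 85 members, 20 rose in deep cells and none fell, where 0.801% of all genes rose and 0.716% fell, and the median was 0.52 with 0.07 for all genes.

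Rps27a, made as a fusion with ubiquitin, had 5.70, 1.80 and 1.99, then 3.96, 0.605 and 1.27 CP10K in shallow cells and 9.12, 4.01 and 2.19, then 7.83, 2.88 and 3.5 CP10K in deep cells. It rose by 1.01 ± 0.21 (adjusted p = 0.0174), higher in 6 of 6 samples. Rpl12 rose by 0.94, Rpl3 by 0.92, Rpl31 by 0.88 and Rps12 by 0.81 (adjusted p = 0.00889). Of the stalk genes Rplp0 rose by 0.69 (adjusted p = 0.0471), while Rplp1 (0.52, adjusted p = 0.0685) and Rplp2 (0.46, adjusted p = 0.142) did not pass.

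No paralogue passed, and Rps27l differed by 0.13 (adjusted p = 0.757). These calls were fragile: 8 members rose with cells thinned to 2000 UMIs, 8 without mouse 1, 1 without the anterior or the posterior sample of mouse 2, and none without posterior mouse 3 or with no sample block. Leaving out the anterior or posterior sample of mouse 1 gave 6 and 13. None of these counts is given with the share of all genes in its fit. The enterocyte marker list was 1249 ± 332 CP10K in shallow and 880 ± 284 CP10K in deep cells and Malat1 13.4 ± 8.41 and 6.86 ± 4.97 CP10K, and their part in the result was not tested. The clusters also differed: cluster 11, with a share of 14.1%, gave 26 of 233 shallow and 57 of 233 deep cells. In 9 cases a cluster had at least 5 cells of both depths in a sample, and the share was higher in the deep cells in 8 of them.

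In goblet-like cells the share was 2.93 ± 0.889% in shallow and 4.28 ± 1.03% in deep cells (SD, n = 6), higher in 6 of 6 samples by 1.56 ± 0.624 times. Only Rps14 rose among 82 members, by 1.53 ± 0.43 (adjusted p = 0.0424), where 0.634% of all genes rose and 1.93% fell. It had 12.4, 2.51 and 5.49, then 13.4, 1.35 and 2.27 CP10K in shallow and 19.3, 12.0 and 8.56, then 13.8, 8.54 and 22.7 CP10K in deep cells. The member median was 0.75, that of all genes -0.08, and 25 members (30.5%) had an unadjusted p under 0.05, against 15.04% of all genes. The call for Rps14 was lost without the anterior or the posterior sample of mouse 2 or of mouse 3.

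The goblet-like class joins cluster 1 (median 1859 UMIs, share 3.52%) and cluster 5 (median 9921 UMIs, share 6.91%). In mice 2 and 3 the depth groups were nearly these clusters, with 49 of 50 shallow cells from cluster 1 and 45 of 50 deep cells from cluster 5. Over all samples cluster 5 gave 6 of 307 shallow and 119 of 307 deep cells. Inside cluster 1 the 2 samples with at least 5 cells of both depths, those of mouse 1, went the other way, with 4.20% in shallow and 3.70% in deep cells of the anterior and 3.72% and 2.97% of the posterior sample. Deep and shallow cells also differed in Malat1, 54.3 ± 60.8 against 172 ± 28.3 CP10K, in goblet markers, 4823 ± 1187 against 2903 ± 373 CP10K, and in enterocyte markers, 87.5 ± 30.5 against 211 ± 40.6 CP10K. Depths were 1136.5 to 1970 UMIs in the shallow and 3331 to 14689.5 UMIs in the deep groups. In progenitor-like cells, as a description over cells, Spearman's rho between UMIs and share ran from -0.309 to 0.441 in the 6 samples of 11 to 72 cells, on both sides of 0.

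**Figure D5:**
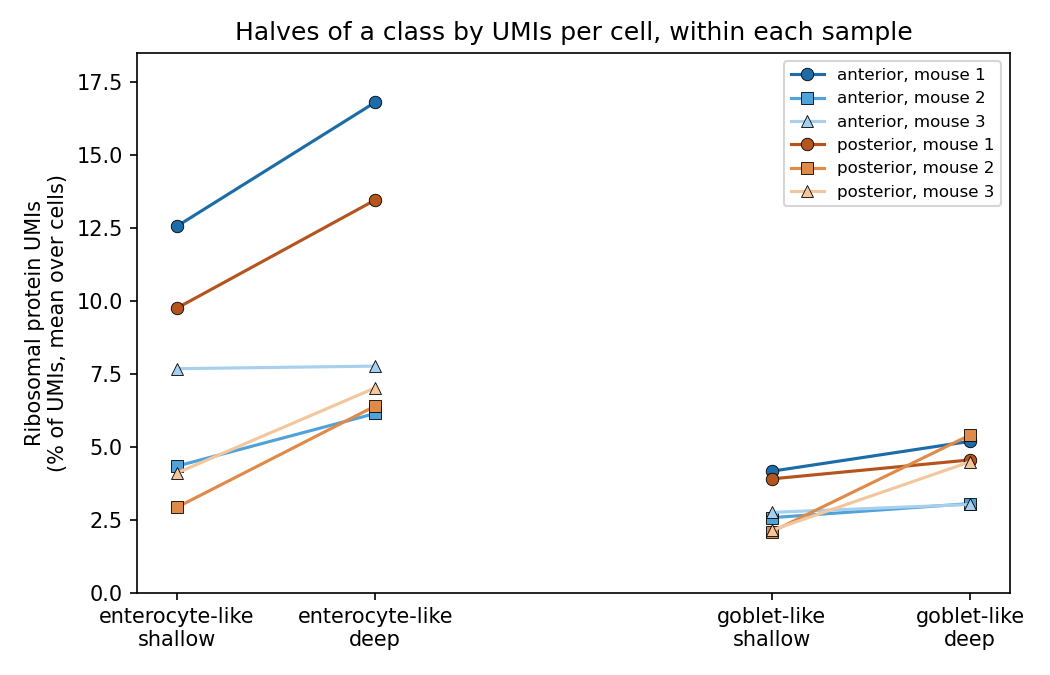
Percent of UMIs from members (y axis, mean over cells) in the shallow and deep cells of the enterocyte-like and goblet-like classes (x axis, divided at each sample's median depth); lines join the groups of a sample. Each line goes up, from a factor of 1.01 to 2.19 in enterocyte-like and 1.10 to 2.59 in goblet-like cells.

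The anterior and posterior samples, the groups named in the labels, showed no member past the threshold in the fit without pairing. In enterocyte-like cells none of 85 members passed with limma, 3 samples against 3, where 0% of all genes did, and 1 had an unadjusted p under 0.05, Rpl29 (1.00, adjusted p = 0.652). The next smallest p values were those of Rps2 (0.70) and Rpl38 (0.78), and the member median was 0.36. Samples of a mouse are paired, and with mouse as a block 1 of 85 members passed, Rpl38, by 0.78 (limma adjusted p = 0.0358). Of all 4747 genes, 48 were higher and 57 lower in that fit, so members were called no more often than all genes.

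In goblet-like cells none of 82 passed, where 0.0235% of all genes did. At an unadjusted p under 0.05 in limma there was 1 member (1.22%), against 3.24% of all genes. It was Rps19bp1 (-2.13, adjusted p = 0.999). In progenitor-like cells none of 88 passed, where 0% of all genes did. None had an unadjusted p under 0.05 in limma, against 4.54% of all genes. The 3 smallest p values were those of Rps29 (0.67), Rpl22l1 (-0.69) and Rps3a3 (-0.61), each with an adjusted p of 0.998. A test of whether the progenitor-enterocyte difference itself varied by region found no member and 0% of all genes. Rpl38 (-0.79), Rps4l (0.90) and Rpl32l (-0.81) had its smallest p values, each adjusted to 0.918. In this limma fit 0 members had an unadjusted p under 0.05, against 5.125% of all genes.

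Members varied together over the 31 class-and-sample means. Pearson's r of a member's log2 level with the mean of the other members had a median of 0.854, ran from 0.241 (Rps4l) and 0.372 (Rps19bp1) to 0.958 (Rpl27a), and was above 0.9 for 25 members. Among 5170 other genes the median r with the members' mean was 0.206, and 12 (0.232%) were above 0.9. Points of a sample share library, mouse and total, so r is a description.

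Most of the 10 genes most like the family were processed pseudogenes. They were Rps19-ps6 (r = 0.957), Gm14586 (0.921), Gm10335 (0.917), Rpl5-ps2 (0.916), Rpl13a-ps1 (0.913), Rps13-ps2 (0.91), Gm10059 (0.908), Mir703 (0.908), Rps27a-ps2 (0.906) and Gm9794 (0.904). Of these, 9 are annotated as processed pseudogenes, and Mir703 is a locus annotated as a microRNA. The symbols of 5 name a ribosomal protein as parent, and the annotation used names no parent for the others. Reads of a parent gene can be counted on its pseudogenes. The 128 rows whose symbol bears the ps mark together held 1.80 ± 0.20% of UMIs in progenitor-like, 0.552 ± 0.318% in enterocyte-like and 0.191 ± 0.040% in goblet-like cells (SD, n = 6).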

How the data were processed

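The values deposited by the authors were log2 values per gene and cell, 1 table for each region, with values below 0. Per the submitters' processing notes the tools were R 3.5.1, STAR 2.6.1b, bcl2fastq, cutadapt 1.18 and UMI-tools 1.0.0, with the builds GRCm38 and mm10; filters and the correction are not given in the sources used here. Each gene's values lay on steps of log2(UMI count divided by a size factor of the cell + 1) after a linear correction, so whole UMI counts were recovered from them, for 100% of values within a tolerance of 0.01. The method was tested on simulated data made from these counts.

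Levels were UMIs per 10000 UMIs over the 5674 shared genes. Clusters (scikit-learn 1.9.0, leidenalg 0.10.2) were made from 1500 variable genes without the members, in 25 components at resolution 1, and gave 12 clusters. The 128 rows with the ps mark could be chosen among the variable genes. A cluster took the name of the marker list of highest mean standardised level, given at least 3 raised markers and a lead of 0.25 over the next list. This rule was chosen after the clusters were seen. No doublet caller was run, since cells were sorted singly.

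Class means per sample were tested with limma 3.58.1 in R 4.3.3 (moderated test with a trend) on log2(CP10K + 0.2), leaving out genes whose mean was under 0.2 CP10K, with Benjamini-Hochberg adjustment over all genes tested and a threshold of 0.05. Sample was a block in contrasts of classes, villus parts and depth groups. Regions were compared without a block. The 2 pieces of a mouse share the animal, and their deviations from region means correlated at r = 0.234 to 0.511 in enterocyte-like, 0.051 to 0.279 in goblet-like and 0.048 to 0.293 in progenitor-like cells.

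Alternatives changed the pseudocount, filter, total, averaging, thinning, clusters, block and samples. Members and lists were chosen with earlier results of these data known. Named were up to 10 members of largest change in the first contrast and up to 5 in the others, the 3 of smallest p where none passed, paralogues with their parents, the stalk proteins and Rpsa, the 5 highest and 5 lowest, and set genes of translation. Some members are not reported here by name, in text or figures, but stay in every count and median. Other members are named where a count leaves them out or where a range needs its ends, and the mouse 1 genes after their values were seen.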

Additional observations from a re-analysis of the deposited data

How the results depend on the processing

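Counts of members past the threshold were within 1.5 times of the reported count in all 17 alternatives for progenitor-like against enterocyte-like cells (56 to 84, and 67 to 76 with a sample left out) and against goblet-like cells (80 to 86). For goblet-like against enterocyte-like cells 38 fell; the count was 22 with no replicate block, 14 with cluster 2 counted as enterocyte-like, 11 without mouse 1, and 18 to 41 with a sample left out. Along the villus it was 0 with no replicate block and otherwise 76 to 83. For deep against shallow enterocyte-like cells 20 rose; the count was 13 with no filter, 8 with thinned cells, 0 with no replicate block, 48 with cluster 2 included, 8 without mouse 1, and 0 to 27 with a sample left out. For deep against shallow goblet-like cells 1 rose; it was 0 with a pseudocount of 1, no filter, thinned cells or no replicate block, 9 with summed UMIs, 2 without mouse 1, and 0 to 1 with a sample left out. For regions in enterocyte-like cells it was 1 with mouse as replicate block, and 0 in the other region alternatives and in those of the enteroendocrine contrast. Blocking changed no other count by over 1.5 times. The causes were not tested. Apart from the regional fit with mouse as replicate block, these counts are given without the share of all genes in the same fit. No called member reversed, though values of the other sign occurred among uncalled ones, most often between regions (31 of 304 in enterocyte-like cells) and never between progenitor-like and goblet-like cells (0 of 357). Cluster 2 and mouse 1 were chosen as alternatives after seeing the data. Rps12l1 and Rps3a2, the members of lowest level, passed the filter only in the fits of progenitor-like cells by region and of the regional difference.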

Other observations

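The samples of mouse 1 stood apart in the family also within progenitor-like cells, where the total share differed little (29.1% and 28.8%, against 24.8% to 26.9% in the other 4 samples). Both mouse 1 samples lay above all 4 others for 32 of 88 members and below them for 7, against 10.9% and 8.68% of all genes. This grouping was chosen after the values were seen and is given without a test. Rpl39 had 6.71 and 6.49 CP10K in the anterior and posterior samples of mouse 1 and 1.06, 0.585, 1.05 and 2.27 CP10K in the others. Rpl26, a large-subunit protein known to bind p53 messages, had 28.7 and 27.5 CP10K, against 8.27, 7.48, 7.17 and 8.46 CP10K. Rpl31 (log2 ratio 1.07), Rpl30 (1.07), Rpl37 (1.04), Rps29 (1.02) and Rps21 (1.01) were next. Rpl41 went the other way, with 113 and 111 CP10K against 148, 148, 147 and 144 CP10K, as did Rps27l (log2 ratio -0.38).

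In enterocyte-like cells both mouse 1 samples lay above the others for 79 members and below for 1, where 19.9% of all genes lay above and 11.2% below. In goblet-like cells they lay above for 37 and below for 1, where 20.9% of all genes lay above and 2.16% below. Rpl26 was again far apart, at a mean of 11.1 against 1.74 CP10K in enterocyte-like and 5.44 against 0.908 CP10K in goblet-like cells. In progenitor-like cells the immediate early and dissociation genes, summed over 11 measured genes, stood at 27.5 and 40.97 CP10K in mouse 1 and 6.37 to 10.7 CP10K in the others, and Malat1 at 13.6 and 14.7 against 3.28 to 6.26 CP10K. Each plate held cells of 1 sample, so mouse and plate cannot be told apart.

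Unnamed cluster 6, with 105 of its 116 cells from mouse 1, had a family share of 20.2% in the anterior and 21.0% in the posterior sample of that mouse, between the progenitor-like and enterocyte-like values of the same samples. Rpl39 and Rps20 were among its leading genes, although members took no part in the clustering. Rows with the ps mark, on which reads of a parent gene can be counted, were not left out of it.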
